A study of Mus musculus with 4 samples.

Results

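The enzymes of mitochondrial and peroxisomal fatty acid oxidation were examined in liver RNA of 4 male aP2-SREBP-1c mice at 24 weeks of age. They were chosen by name, as 36 genes that encode the carnitine shuttle, the dehydrogenases, hydratases and thiolases of both organelles, the electron transfer flavoproteins and a few related enzymes. Of these 36 genes, 35 were measured, among 19938 genes with 1 symbol on the array, and Acsl1 was not analysed here. The mice carry a human SREBP-1c transgene (the HA-tagged, transcriptionally active N-terminal part) under the aP2 promoter on a C57Bl6 background. The transgene is expressed in adipose tissue and not in the liver, and the mice lack functional adipose tissue, develop systemic insulin resistance and accumulate lipid in the liver. They were fed regular chow. The 4 mice form 1 group with 1 array per mouse, so levels and their spread between mice are described, and no test between groups was possible.

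Fatty acid oxidation removes carbon from fatty acids in units of acetyl-CoA. Long chains enter mitochondria through the carnitine shuttle, whose first enzyme Cpt1a is inhibited by malonyl-CoA, the substrate of fatty acid synthesis. They are then shortened in a cycle of dehydrogenation, hydration, a second dehydrogenation and thiolysis. Peroxisomes shorten very long and branched chains and bile acid precursors in a similar cycle with enzymes of their own. In liver, many of these genes are targets of the fasting receptor PPARalpha, which binds direct repeats of a half-site together with RXR.

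Values are log2 expression values, so that a difference of 1 is a 2-fold change, and levels of different genes are not compared because their probes differ. As a background limit, the 95th percentile of 1212 olfactory and vomeronasal receptor probe sets was taken on each array. The limits were 5.52, 5.35, 5.34 and 5.33 in mice 1 to 4, and 12265 genes lay above them in all mice. The values of mouse 1 were compressed. Among 10 classes of mean expression, the median of mouse 1 minus the mean of mice 2 to 4 was 0.13 in the lowest class and -0.23 in the highest class. Hepatocyte markers were above background for 9 of 9 measured genes, with a mean level between 12.99 and 13.12 in the 4 mice. Pancreatic acinar transcripts were above background for 10 of 13 measured genes, with mean levels of 8.25, 6.21, 6.52 and 8.04 in mice 1 to 4. Whether fewer cells of a type or less RNA per cell lie behind a low value cannot be told apart in whole liver.

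Promoter windows are shown for genes on which the following results turn, namely a pair of thioesterase genes that varied most, the divergent pair Hadha and Hadhb, and the members with a PPARalpha-type repeat. The windows run from 250 bases before to 50 bases after the start of a gene and are given on the strand of the gene (RefSeq, GRCm38.p6). They were present for 29 of the 35 genes. The motif searched was AGGTCA, 1 base of any kind and AGGTCA again, on both strands and with at most 2 mismatches, named DR1. In Acot2 (chr12:83987611-83987910, plus strand) the capitals mark the closest window, which has 3 mismatches and therefore does not count as a match. In Acot4 (chr12:84038129-84038428, plus strand) they mark a match with 2 mismatches. In Hadhb (chr5:30155003-30155302, plus strand) the capitals mark the 228 bases that also belong to the window of Hadha on the other strand.
Acot2: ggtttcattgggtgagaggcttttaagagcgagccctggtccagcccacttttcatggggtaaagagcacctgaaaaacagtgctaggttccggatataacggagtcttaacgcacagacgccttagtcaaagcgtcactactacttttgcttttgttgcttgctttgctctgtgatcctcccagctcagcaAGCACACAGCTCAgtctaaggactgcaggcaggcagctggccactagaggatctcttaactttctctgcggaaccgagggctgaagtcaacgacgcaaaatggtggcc
Acot4: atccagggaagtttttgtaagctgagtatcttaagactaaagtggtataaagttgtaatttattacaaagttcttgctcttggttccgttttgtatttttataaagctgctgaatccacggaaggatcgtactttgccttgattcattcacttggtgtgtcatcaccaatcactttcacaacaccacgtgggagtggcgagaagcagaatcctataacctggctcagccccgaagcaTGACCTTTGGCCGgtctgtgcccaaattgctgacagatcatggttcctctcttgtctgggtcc
Hadhb: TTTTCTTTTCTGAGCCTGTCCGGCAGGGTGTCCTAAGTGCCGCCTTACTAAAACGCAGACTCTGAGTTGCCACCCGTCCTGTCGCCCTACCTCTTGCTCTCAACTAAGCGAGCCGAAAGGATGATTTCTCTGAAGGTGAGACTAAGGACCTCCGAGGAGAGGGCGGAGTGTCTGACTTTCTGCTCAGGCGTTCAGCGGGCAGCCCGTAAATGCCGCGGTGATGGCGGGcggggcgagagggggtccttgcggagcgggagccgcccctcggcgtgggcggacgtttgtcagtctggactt
Of 31 windows of the members, 3 held a DR1 match (9.68%), compared with 3.86% of all 32851 windows. They belong to Echs1 (chr7:140116482-140116514, minus strand), Etfa (chr9:55512298-55512330, minus strand) and Acox2 (chr14:8258808-8258840, minus strand), and each has 2 mismatches. The match is in capitals.
Echs1: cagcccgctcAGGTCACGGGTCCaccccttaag
Etfa: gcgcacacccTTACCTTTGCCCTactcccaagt
Acox2: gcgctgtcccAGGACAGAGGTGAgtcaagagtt
No member window held a DR1 match with at most 1 mismatch, compared with 0.554% of all windows. The median GC content was 60.3% in member windows and 52.7% in all windows, and the shares are not matched for it. The half-site AGGTCA alone, which is part of the longer motif, was found in 5 of 31 member windows (16.1%) and in 16.3% of all windows. These matches describe the letters of short windows and say nothing of binding.

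All 35 measured enzymes were above background in every aP2-SREBP-1c mouse, with means between 6.61 (Acad10) and 13.21 (Scp2). Between the highest and the lowest mouse, 6 of the 35 differed by more than 1.5-fold (17.1%), compared with 12.9% of all genes above background. These were Acadm, Hadhb, Eci2, Decr2, Acaa1a and Acot2. The median SD of the members was 0.18, and that of all genes above background was 0.15. The lowest value lay in mouse 1 for 28 of 35 members (80%), in mouse 2 for 5, in mouse 3 for 2 and in mouse 4 for none. Over all genes above background, these shares were 46.1%, 18.8%, 16.5% and 18.7% for mice 1 to 4. The highest value lay in mouse 3 for 20 members (57.1%), compared with 31.4% of all genes. For mice 1, 2 and 4 the counts of highest values were 1 (Etfb), 8 and 6, compared with 22.9%, 20.9% and 24.9% of all genes. These shares of all genes are not matched for expression level, and shares of highest values were not computed by class.

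Most members belong to the upper expression classes, in which mouse 1 was generally low. Of the 35 members, 32 fell into the 2 highest of 10 classes, and 27 of these 32 had their lowest value in mouse 1 (84.4%), beside 74.9% of all genes in these classes. The lowest value lay in mouse 2 for 4 of the 32, in mouse 3 for 1 and in mouse 4 for none, beside 15.4%, 5.5% and 4.16% of genes in these classes. A range over 1.5-fold was seen for 5 of the 32, beside 13.8%. The median of mouse 1 minus the other mice was -0.27 for the members and -0.08 for all genes above background. Relative to the median of genes of the same expression class, the median of the members in mouse 1 was -0.038, with 22 of 35 members below their class median. After quantile normalization of the 4 arrays, the median difference of mouse 1 was -0.11 for the members and -0.02 for all genes. The lowest value then lay in mouse 1 for 19 members (54.3%), compared with 36.1% of all genes, and in mice 2, 3 and 4 for 5, 5 and 6 members, compared with 21.9%, 20.8% and 21.2%. Only Acot2 and Acaa1a then differed by more than 1.5-fold, compared with 10.6% of all genes. Without mouse 1 the same 2 enzymes remained over 1.5-fold (5.71%), compared with 2.71% of all genes. In mice 2, 3 and 4, the median differences of the members were 0.13, 0.16 and 0.01 with the deposited values, compared with 0.03, 0.05 and 0.02 for all genes above background. In the highest expression class the median difference of mouse 3 was 0.13. Relative to genes of the same class, the medians of the members in mice 2, 3 and 4 were 0.058, 0.029 and -0.022.

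**Figure D1:**
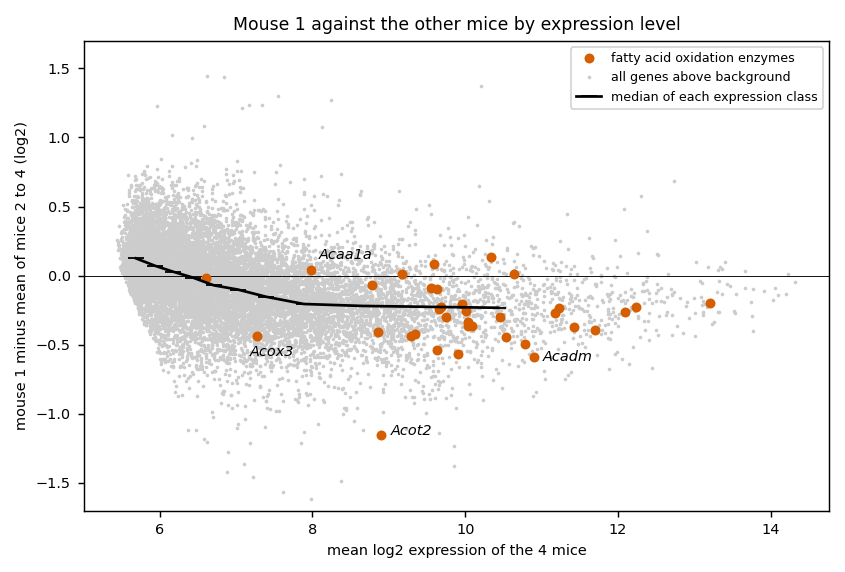
Difference of mouse 1 from the mean of mice 2 to 4 (log2) against the mean log2 expression of the 4 mice, for the 35 fatty acid oxidation enzymes (orange), all genes above background (grey) and the median of each of 10 expression classes (black line). Most enzymes lie around the class median of -0.23 in the highest class, Acot2 lies far below it and Acaa1a above it, and 6 grey genes fall outside the axis.

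In the carnitine shuttle, all 4 measured enzymes had their lowest value in mouse 1 and their highest in mouse 3. Cpt1a, which couples long-chain fatty acids to carnitine at the outer mitochondrial membrane, was measured at 9.81, 10.16, 10.28 and 10.11 in mice 1 to 4 (10.09 ± 0.20, SD, n = 4). Mice 2, 3 and 4 lay close together, 1.13-fold apart, and mouse 1 lay below them. Cpt2, which returns the acyl group to CoA inside the mitochondrion, behaved alike at 8.97, 9.37, 9.50 and 9.34. Crat handles short acyl groups in mitochondria and peroxisomes and was measured at 8.55, 9.08, 9.11 and 8.68, so that here mouse 4 was low together with mouse 1. Crot, the octanoyltransferase that exports chain-shortened products from peroxisomes, reached 12.09 ± 0.14 (SD, n = 4). The largest range of this step was 1.47-fold, for Crat.

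Among the acyl-CoA dehydrogenases, which carry out the first step of each cycle for different chain lengths, only Acadm differed by more than 1.5-fold. The medium-chain enzyme Acadm was measured at 10.46, 11.17, 11.15 and 10.81 in mice 1 to 4 (10.90 ± 0.34, SD, n = 4), a 1.64-fold range. Mouse 1 was lowest, mouse 4 intermediate and mice 2 and 3 nearly equal. Without mouse 1 the range was 1.28-fold, and after quantile normalization it was 1.48-fold. The very-long-chain enzyme Acadvl was measured at 9.82, 10.08, 10.13 and 10.01 (10.01 ± 0.14, SD, n = 4) and the long-chain enzyme Acadl at 9.68 ± 0.14 (SD, n = 4).
The short-chain enzyme Acads varied little, with 8.73, 8.74, 8.87 and 8.77 in mice 1 to 4. Acad10, the member with the smallest SD (0.04), was measured at 6.60, 6.56, 6.64 and 6.64, and it was also the member closest to the background limit, 1.22 above it on average. Acadsb, which acts on short branched chains, had its lowest value in mouse 2 (9.01) and its highest in mouse 4 (9.29). Acad11 followed the order of Acadvl, with a range of 1.28-fold.

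The enzymes that complete the mitochondrial cycle were all lowest in mouse 1. Hadha and Hadhb encode the subunits of the trifunctional protein, which performs the last 3 steps on long chains, and they are transcribed in opposite directions from the shared window printed above. Hadha was measured at 10.98, 11.27, 11.27 and 11.20 in mice 1 to 4 (11.18 ± 0.14, SD, n = 4), a 1.23-fold range. Hadhb was measured at 9.48, 10.02, 10.05 and 10.08 (9.91 ± 0.28, SD, n = 4), a 1.52-fold range. In both, mouse 1 lay below 3 similar mice. Hadhb was the only member with several probe sets, and its other probe set was likewise lowest in mouse 1 (9.44), with a 1.48-fold range. The range of Hadhb was 1.04-fold without mouse 1, 1.48-fold without mouse 4 and 1.32-fold after quantile normalization. That of Hadha was 1.05-fold without mouse 1.
The hydratase Echs1 and the dehydrogenase Hadh, which serve shorter chains, were measured at 10.04 ± 0.18 and 11.42 ± 0.20 (SD, n = 4 each). For Echs1 the values were 9.77, 10.13, 10.15 and 10.11. The thiolase Acaa2 reached 12.24 ± 0.18 and Hsd17b10, a dehydrogenase of branched-chain and steroid substrates, 9.96 ± 0.14 (SD, n = 4 each).

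Double bonds are handled by auxiliary enzymes, and Eci2 and Decr2, 2 of 4 such genes, spread over more than 1.5-fold. The isomerase Eci2 was measured at 9.23, 9.80, 9.86 and 9.62 in mice 1 to 4 (9.63 ± 0.29, SD, n = 4). The peroxisomal reductase Decr2 was measured at 10.42, 11.09, 10.99 and 10.65 (10.79 ± 0.31, SD, n = 4). In both genes mouse 1 was lowest and mouse 4 lay between it and the other mice. After quantile normalization the ranges were 1.32-fold for Eci2 and 1.44-fold for Decr2, compared with 1.55-fold and 1.60-fold with the deposited values. Without mouse 1 they were 1.18-fold and 1.36-fold, and each also fell just short of 1.5-fold without another mouse (mouse 3 for Eci2, mouse 2 for Decr2). The mitochondrial isomerase Eci1 and reductase Decr1 had ranges of 1.23-fold and 1.43-fold.

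**Figure D2:**
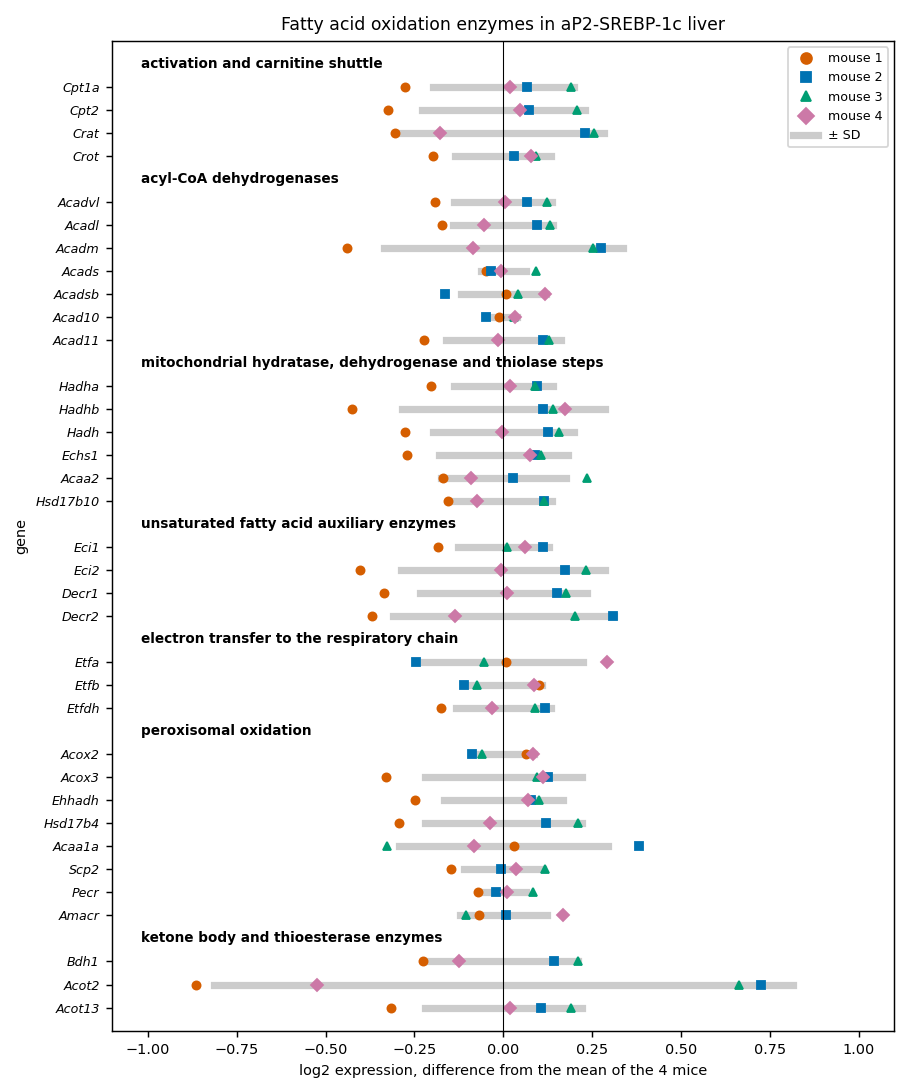
Log2 expression of the 35 measured fatty acid oxidation enzymes in each aP2-SREBP-1c mouse, centred on each gene's mean, grouped by step, with symbols for mice and grey bars for ± SD. Mouse 1 is lowest in 28 of the 35 rows, Acot2 has the widest spread (SD 0.81) and Etfa, Acaa1a and Acox2 are among the rows in which mouse 1 is not lowest.

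Among the electron transfer genes, Etfa and Etfb did not share this order, whereas Etfdh did. The dehydrogenases pass electrons to the electron transfer flavoprotein, made of the subunits Etfa and Etfb, and Etfdh then passes them to ubiquinone. Etfa was measured at 10.65, 10.39, 10.58 and 10.93 in mice 1 to 4 (10.64 ± 0.22, SD, n = 4). Etfb was measured at 10.44, 10.23, 10.26 and 10.42 (10.34 ± 0.11, SD, n = 4). Both subunits were lowest in mouse 2, and mice 1 and 4, in which the pancreatic acinar transcripts were high, held the 2 highest values. The part of these transcripts in the result was not tested. Etfdh showed the reverse ranks of Etfb, with 11.05, 11.34, 11.31 and 11.19 (11.23 ± 0.13, SD, n = 4), lowest in mouse 1 and highest in mouse 2. After quantile normalization the ranges of Etfa, Etfb and Etfdh were 1.46-fold, 1.29-fold and 1.11-fold, and the lowest value of Etfb then lay in mouse 3, by less than 0.01 below mouse 2.

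Of the 8 genes of peroxisomal oxidation, 5 were lowest in mouse 1, 1 in mouse 2 and 2 in mouse 3. Ehhadh, the bifunctional enzyme of straight chains, was measured at 9.78, 10.11, 10.13 and 10.10 in mice 1 to 4 (10.03 ± 0.17, SD, n = 4), with mice 2, 3 and 4 only 1.02-fold apart. Hsd17b4, the bifunctional enzyme of branched chains and bile acid precursors, reached 11.70 ± 0.22 (SD, n = 4). The thiolase domain of Scp2 completes the breakdown of branched chains, and Scp2 was measured at 13.21 ± 0.11 (SD, n = 4). Of the branched-chain oxidases, Acox2 was measured at 9.66, 9.51, 9.53 and 9.68, and Acox3 at 6.95, 7.40, 7.37 and 7.39. Mouse 1 was thus the lowest for Acox3 and among the higher 2 mice for Acox2. Pecr, the trans-2-enoyl-CoA reductase, varied little at 9.56, 9.61, 9.71 and 9.64 (SD 0.06), and the racemase Amacr reached 9.56 ± 0.12 (SD, n = 4).
The thiolase Acaa1a was the exception in size and order. It was measured at 8.01, 8.36, 7.65 and 7.90 in mice 1 to 4 (7.98 ± 0.29, SD, n = 4), so that mouse 2 was highest and mouse 3 lowest. Its range of 1.63-fold did not rest on mouse 1 and was 1.68-fold after quantile normalization. Without mouse 3 it was 1.38-fold and without mouse 2 it was 1.28-fold. The closely related Acaa1b, which is not one of the 36 genes, was measured at 11.38, 11.83, 11.78 and 11.50, lowest in mouse 1. Mouse 3 was thus low for Acaa1a and among the 2 highest for Acaa1b. How far the probes of this gene pair share transcripts was not tested.

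The mitochondrial thioesterase Acot2, which releases free fatty acids from acyl-CoA, had by far the widest spread. It was measured at 8.04, 9.62, 9.56 and 8.38 in mice 1 to 4 (8.90 ± 0.81, SD, n = 4), a 3.01-fold range. Mice 2 and 3 were high and nearly equal, and mice 1 and 4 were both low. Its SD ranked 20th among 12265 genes, and it was the only member that differed by more than 2-fold, as 1.13% of all genes did. The range was 2.38-fold without mouse 1 and 2.71-fold after quantile normalization. In the same mice the pancreatic acinar transcripts were high in mice 1 and 4, and stellate cell markers (8 of 8 measured genes above background) had mean levels of 6.95, 7.46, 7.37 and 7.04. Of these 8 markers, 6 were lowest in mouse 1 and 2 in mouse 4, and Des was highest in mouse 1. Cholangiocyte markers (3 of 5 measured genes above background) had mean levels of 6.18, 6.41, 6.43 and 6.20. Of these 3, Sox9 was lowest in mouse 2 (7.04) and highest in mouse 3 (7.40). Krt19 and Krt7 were highest in mouse 2 and lay near the background limit, with means of 5.82 and 5.94. The part of any of these in the spread of Acot2 was not tested.
The neighbouring thioesterase genes on chromosome 12 gave different values. Acot4, a peroxisomal thioesterase of dicarboxylic acyl-CoA, was measured at 6.93, 7.87, 7.84 and 7.48, a 1.92-fold range (1.31-fold without mouse 1) with the same ranks as Acot2. Acot3 was measured at 6.18, 6.51, 6.33 and 6.35 and the cytosolic Acot1 at 5.81, 5.82, 5.98 and 5.57, with ranges of 1.26-fold and 1.33-fold. The genes of this cluster are closely related, so that signals of these probe sets may not be fully separate.
The other genes of this group varied less. Bdh1, which converts acetoacetate to the ketone body 3-hydroxybutyrate, was measured at 9.52, 9.89, 9.96 and 9.62 (9.75 ± 0.21, SD, n = 4), with mice 1 and 4 low as for Acot2. The thioesterase Acot13 was measured at 9.02, 9.44, 9.53 and 9.36 (9.34 ± 0.22, SD, n = 4), with mouse 1 alone below the others.

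**Figure D3:**
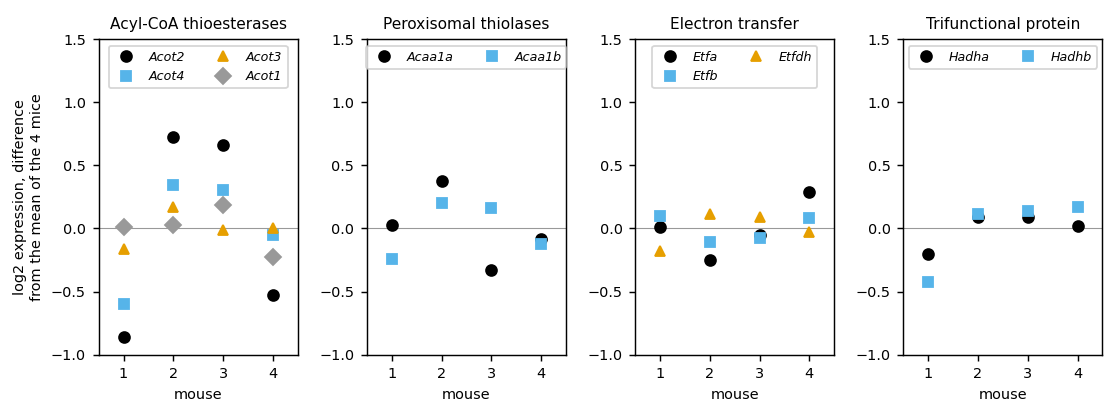
Log2 expression of related enzymes in mice 1 to 4, centred on each gene's mean, in panels for thioesterases, peroxisomal thiolases, electron transfer genes and the trifunctional protein. Acot2 and Acot4 are low in mouse 1 and high in mice 2 and 3, Acaa1a is low in mouse 3 where Acaa1b is high, and Etfa and Etfb are low in mouse 2, where Etfdh is highest.

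By compartment, mitochondrial and peroxisomal enzymes showed a similar spread. The median SD was 0.18 for 21 mitochondrial and 0.17 for 9 peroxisomal enzymes, with median differences in mouse 1 of -0.26 and -0.27. Mouse 1 was lowest for 17 of the 21 and for 7 of the 9. In mouse 1, 13 of 21 mitochondrial and 5 of 9 peroxisomal enzymes lay below the median of their expression class. A further 5 measured enzymes that occur in several compartments had a median difference of -0.41. By step, the median difference of mouse 1 ran between -0.47 for the auxiliary enzymes of unsaturated chains and 0.01 for electron transfer.

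**Figure D4:**
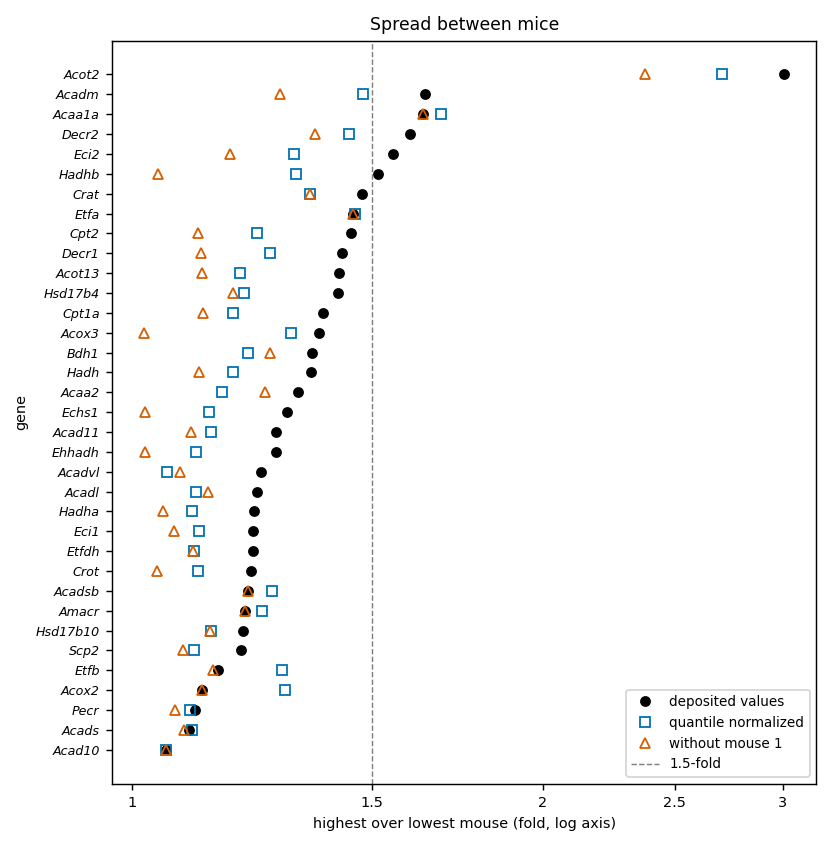
Fold between the highest and the lowest aP2-SREBP-1c mouse (log axis) for the 35 enzymes with the deposited values (black), after quantile normalization (blue squares) and without mouse 1 (orange triangles), with a dashed line at 1.5-fold. Acot2 and Acaa1a are the only enzymes to the right of the line in all 3 settings, and Acadm, Decr2, Eci2 and Hadhb cross it.

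Other genes of the pathway, from a list of 59, were measured for 52, of which 46 were above background and 8 differed by more than 1.5-fold (17.4%, compared with 12.9% of all genes). Without mouse 1 this count was 1 (Bdh2, 2.17% of the 46), compared with 2.71% of all genes. The lowest value lay in mouse 1 for 34 of the 46 (73.9%, compared with 46.1% of all genes), and for 22 after quantile normalization (47.8%, compared with 36.1%). The shares of all genes are not matched for expression level. In the 2 highest of 10 expression classes, 74.9% of genes were lowest in mouse 1 with the deposited values. A share matched to the levels of these 46 genes was not computed. The carnitine-acylcarnitine carrier Slc25a20, which lies between Cpt1a and Cpt2 in the shuttle, was measured at 8.94, 9.82, 9.96 and 9.53 in mice 1 to 4 (2.03-fold). The PPARalpha gene itself, Ppara, was measured at 8.63, 9.44, 9.55 and 9.08 (1.89-fold) and its fasting target Pdk4, a kinase that restrains pyruvate oxidation, at 7.83, 8.75, 8.84 and 8.52 (2.02-fold). Mouse 1 was lowest and mouse 3 highest for all 3 genes, and their ranges after quantile normalization were 1.72-fold, 1.61-fold and 1.75-fold. Without mouse 1 they were 1.35-fold for Slc25a20, 1.39-fold for Ppara and 1.25-fold for Pdk4. The peroxisomal fatty acid transporter Abcd2 had a 2.08-fold range, the carnitine transporter Slc22a5 a 1.57-fold range and the thioesterase Acot12 a 1.59-fold range, and these were 1.48-fold, 1.20-fold and 1.11-fold without mouse 1.
Bdh2, a cytosolic dehydrogenase, ran the other way, with 6.96, 6.45, 6.58 and 7.21, highest in mouse 4. Acacb, which makes the malonyl-CoA that restrains Cpt1a, varied 1.17-fold, and Rxra, the partner of PPARalpha, likewise 1.17-fold. Oxct1, the enzyme of ketone body use that hepatocytes lack, was measured near the limits at 5.47, 5.49, 5.55 and 5.41, below the limit in mouse 1 and slightly above it in mice 2, 3 and 4.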

How the data were processed

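Liver RNA of 4 aP2-SREBP-1c mice was hybridized to 1 Mouse Gene 1.0 ST array per mouse. The authors deposited log2 expression values computed by RMA (background correction, quantile normalization and median polish) in the Affymetrix Expression Console, per the labels. Which arrays were normalized together and the genome build are not given in the sources used here. All 4 columns were matched to a mouse. Of 35556 probe sets, 21789 carried 1 symbol, and the probe set with the highest mean was taken per gene. The protein sequences planned for analysis were not used here. The enzymes and lists were chosen with earlier results of these data known. Values in every mouse are given for members over 1.5-fold, for Cpt1a, Acadvl, Hadha, Ehhadh, Acaa1a, Etfdh and Bdh1, and for the 3 largest and 3 smallest SDs, with further genes added after their values were seen. Of the other genes and markers, those over 1.5-fold and defining genes at background were eligible, and further ones were added after their values were seen. Marker lists not described in the text had 8 of 9 (macrophage), 8 of 8 (endothelial), 4 of 7 (adipocyte), 4 of 8 (skeletal muscle) and 1 of 1 (erythroid) measured genes above background.
Alternatives were median-centred arrays, quantile normalization, the mean of probe sets, background limits at the 90th and 99th percentile, no filter, a 2-fold range and leaving out each mouse. Steps were tested on simulated data for 12265 genes, in which 200 of 200 genes lowered by 1 log2 unit in 1 mouse were recovered. The simulated noise had an SD of 0.05, below the median SD of 0.15 of all genes above background. The simulation therefore checks the code and not the sensitivity in these data. No pair of arrays shared more than 25 identical values. The number of arrays limits the precision, and nothing separates animal from technical spread. Python 3.11.15, numpy 2.4.6, pandas 2.3.3 and matplotlib 3.10.9 were used.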

Additional observations from a re-analysis of the deposited data

Results flagged for a closer look

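In 4 of 35 enzymes, mouse 1 stood apart from 3 similar mice, by a gap that exceeded Dixon's 95% critical value. Relative to the mean of mice 2 to 4, mouse 1 lay at -0.57 for Hadhb, -0.36 for Echs1, -0.44 for Acox3 and -0.33 for Ehhadh. Among the 46 other genes of the pathway above background, it was -0.44 for Acsm1 and -0.27 for Pccb in mouse 1, and 0.35 for Sirt3 in mouse 4. Chance flags about 1 in 20 groups of 4, and among all genes above background the share was 5.75%, with mouse 1 as the outlying animal in 62.6% of cases. This share is not matched for expression level, and in the 2 highest of 10 expression classes 74.9% of genes were lowest in mouse 1. By Dixon's measure the limit for background was also set apart in mouse 1, at 5.52.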

How the results depend on the processing

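No paired analysis was possible because there is only 1 group of mice. The count of enzymes above background stayed at 35 under all alternatives run for it. The count over 1.5-fold between mice was 2 (Acot2 and Acaa1a) after quantile normalization, 1 with a 2-fold range, and 2 to 5 with 1 mouse left out, the lowest without mouse 1 (Acot2 and Acaa1a). The median SD, 0.18, was 0.089 without mouse 1 and at most 0.20 without another mouse. Relative to genes of the same expression class, a comparison chosen after seeing the data, the median difference of mouse 1 was -0.038 in place of -0.27. With 1 other mouse left out it lay between -0.30 and -0.26. The class medians are subtracted by construction, and the cause of the other shifts was not tested. For the enzymes' mean levels, 245 of 245 alternative values stayed within 1 SD, but most of these could not have failed. In a group this small, leaving out 1 mouse always moves a mean by less than 1 SD. Median-centring leaves each mean unchanged, and the mean of probe sets differs only for Hadhb. Quantile normalization maps each array to the average of the same 4 arrays, so a gene's mean hardly moves (10.09 and 10.10 for Cpt1a). The count is therefore no measure of stability. Of 245 fold ranges, 230 kept their side of 1.5-fold, 14 fell below it and 1, that of Crat with median-centred arrays, rose above it (1.52). Signal over background limits Acad10 and Acox3, 1.22 and 1.89 above the limit on average.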

Other observations

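In a list for the breakdown of branched-chain and odd-chain acyl-CoA, 7 of 8 measured genes were expressed in all aP2-SREBP-1c mice. Gcdh and Acad9, which are among the 7, do not belong to this breakdown. None of the 7 differed by more than 1.5-fold between mice, compared with 12.9% of all genes above background, but 7 genes are too few for a contrast. The gene left out, Acad12, was measured at 5.49, 6.08, 6.16 and 5.82 in mice 1 to 4, a 1.60-fold range. It lay below the background limit only in mouse 1 (limit 5.52). Mcee, the epimerase of methylmalonyl-CoA, had levels of 9.26, 9.78, 9.77 and 9.55 in the 4 mice, and Acad8, which acts on isobutyryl-CoA, at 8.35, 8.83, 8.83 and 8.52. In both, mice 2 and 3 were nearly equal and mouse 1 was lowest. Ivd, the isovaleryl-CoA dehydrogenase, was lowest in mouse 4 (8.86) and highest in mouse 3 (9.19). The medium-chain synthetases Acsm1, Acsm3 and Acsm5 had ranges of 1.40-fold, 1.45-fold and 1.25-fold, all lowest in mouse 1.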
